A study of Arabidopsis thaliana with 12 samples.

Results

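The set described here holds 101 Arabidopsis thaliana genes. Their transcript signal was higher in plants overexpressing ARR22 than in the wild type, both without and with cytokinin. With cytokinin their mean log2 signal moved by a ratio of at most 1.62 in either genotype, a limit that still leaves room for responses. The members were selected on the 4 group means of log2 signal from the 13513 probe sets that the array annotation pairs with 1 gene. The highest of the 4 means had to reach 5.3, a signal of about 39.4. ARR22-ox had to exceed Col-0 by at least 0.8 on the log2 scale, a ratio of 1.74, untreated and again after t-zeatin. The difference between t-zeatin and untreated plants had to stay between -0.7 and 0.7 in each genotype, a ratio of at most 1.62 either way. Because all 4 means chose the members, their differences are given as a description and carry no test.

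The arrays came from complete 21-day-old plants at the vegetative stage, 3 arrays per group and 12 in all. Each of 2 genotypes, the wild type Col-0 and an overexpressor of ARR22 written ARR22-ox, was sampled in 2 conditions. Treated plants received t-zeatin at 20 µM over 3 h, and untreated plants received nothing, so they are no mock control. The labels name neither the promoter that drives ARR22 nor the line or number of clones, nor is it stated that replicate arrays stem from separate plants, so spreads and p-values measure only these arrays. The titles of the Col-0 t-zeatin samples, and of no others, carry an added suffix whose meaning is not given. Any difference behind it cannot be told apart from that group.

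Plants sense cytokinins such as t-zeatin through histidine kinase receptors, which pass a phosphoryl group by phosphotransfer proteins to response regulators. Type-B regulators are transcription factors that switch on cytokinin target genes, and type-A regulators are themselves induced and dampen the signal. ARR22 is a type-C regulator, which accepts the phosphoryl group but has no DNA-binding output domain, and its overexpression is known to weaken cytokinin responses. RR22, the symbol of ARR22 (AT3G04280), had signals of 2857, 3248 and 3661 in ARR22-ox untreated and 2792, 2752 and 3132 after t-zeatin, against values from 0.397 to 1.92 on the 6 Col-0 arrays. The overexpressed gene is not itself a member, since its Col-0 signal after t-zeatin lay 0.98 below the untreated one on the log2 scale, outside the window, although both levels are close to 0.

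ARR22-ox untreated replicate 3 stood apart from the other arrays. Its ratio of 3' to 5' signal was 1.82 for a GAPDH control and 3.47 for an actin control, against 0.881 to 1.08 and 1.18 to 1.38 on the other 11 arrays. Its mean correlation with its own group across all probe sets other than controls was 0.936 on the log2 scale, against 0.948 to 0.964 for the others. Every ARR22-ox untreated mean below includes it, and the members that the rule does not select without it, or whose untreated difference it moves by over 1.5 times, are given further on with their values without it. Of 15 root, 9 leaf and 6 flower and seed marker genes, 2, 1 and 0 were tested, since the annotation pairs few of them with a probe set of their own. PYK10, a root beta-glucosidase, had mean signals between 1388 and 2131 in the 4 groups, and RCA, the leaf Rubisco activase, between 2239 and 3026. PYK10 was 0.35 ± 0.07 lower in ARR22-ox untreated and 0.57 ± 0.07 lower after t-zeatin on the log2 scale (limma, adjusted p = 0.000856 and 1.45e-05), while RCA differed by -0.14 and -0.17 (limma, adjusted p = 0.119 and 0.0614). EXPA7, an expansin of root hairs, differed by -0.05 ± 0.19 and 0.76 ± 0.19 (limma, adjusted p = 0.866 and 0.00562). The part of such tissue differences in the values below was not tested, and in whole plants more cells of a type and more RNA per cell cannot be told apart.

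Of the 13513 probe sets with 1 gene, 6887 reached the minimum group mean. Among these, 530 met the difference of 0.8 untreated, 737 met it after t-zeatin and 204 met both. The window on the t-zeatin response then removed 51 probe sets on Col-0 and 83 on ARR22-ox, with 31 removed on both, which left 101 probe sets for 101 genes. The same rule with the signs turned selected 102 genes that were lower in ARR22-ox. Their median mean difference was -1.22, against 1.29 for the members, so the 2 sets were close in number and in size of difference.

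The members nearest to the limits show how the rule cut through a continuum. The smallest untreated differences inside were 0.801 for AT2G34140, 0.805 for AT2G36950 and 0.811 for SDH1-1. Just outside lay AT4G38540 at 0.798, AT4G23050 at 0.793 and AT3G26100 at 0.776. After t-zeatin the smallest members' differences were 0.80 for AT1G67600, 0.82 for PYE and 0.82 for AT5G47050, and the nearest probe sets outside were 0.78, 0.77 and 0.76 for AT3G16660, AT3G25290 and AT2G29320. In the Col-0 response AT5G02940, AT3G15650 and AT1G43910 lay inside the lower limit at -0.70, -0.68 and -0.66, while GSTU16 was left out at -0.76 with genotype differences of 1.35 and 1.42. PRX25, AT2G30840 and AT2G04050 had ARR22-ox responses of -0.70, -0.69 and -0.66. The lowest members by highest group mean were AT2G04050 at 5.32, AT5G44390 at 5.36 and BGLU45 at 5.36.

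Across the set, ARR22-ox exceeded Col-0 by a median of 1.23 on the log2 scale untreated, with a range from 0.80 to 4.16, and by a median of 1.32 after t-zeatin, with a range from 0.80 to 3.97. Over all 13648 probe sets that passed the filter on mean signal, the medians were 0.01 and -0.05. The mean of the 2 differences corresponded to a median ratio of 2.44 and ran from 1.78 to 16.7. It was at least 3 on the log2 scale in 3 members, between 2 and 3 in 6, between 1 and 2 in 79, and under 1 in 13. Of the 101 members, 95 passed the filter and all 95 were called higher in both genotype comparisons (limma, adjusted p under 0.05), where the rule left little other outcome and nothing is read from the count. Of all probe sets tested, 24.5% were called higher and 24.0% lower in ARR22-ox untreated, and 23.1% higher and 28.0% lower after t-zeatin. The 6 that did not pass, AT4G00670, AT1G30760, BGLU27, AT2G04050, AT4G32950 and AT5G44390, had low Col-0 signals and no fit.

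**Figure D1:**
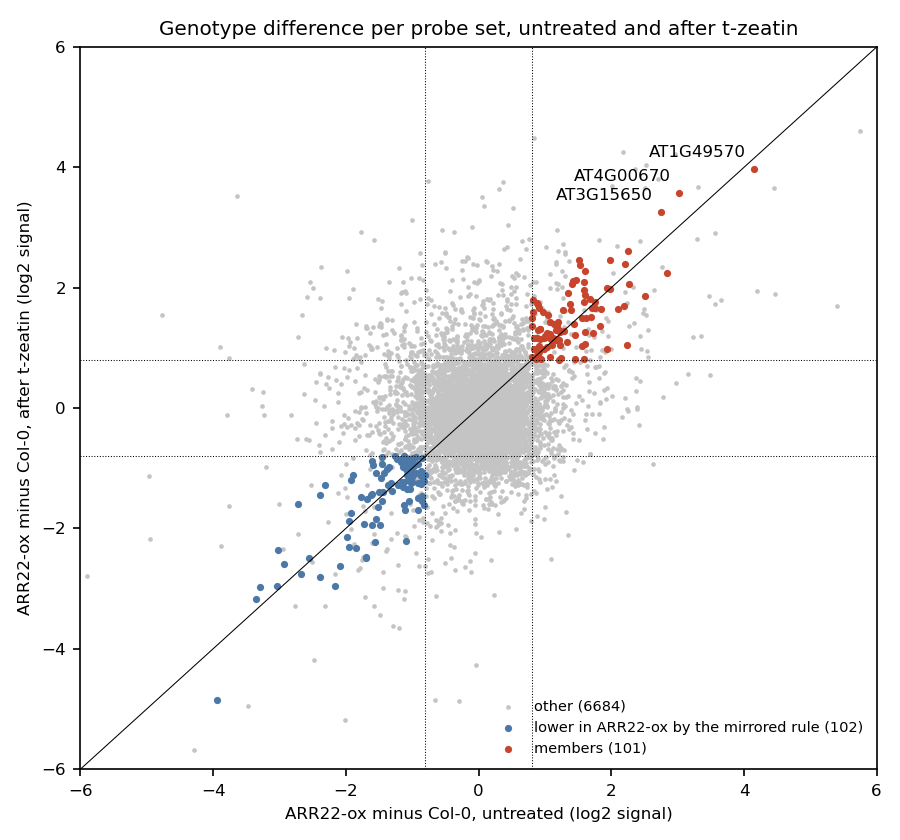
ARR22-ox minus Col-0 in log2 signal, untreated on the horizontal axis and after t-zeatin on the vertical axis, for the 6887 probe sets with 1 gene that reached the minimum group mean (4 lie beyond the axes). The 101 members (red) and the 102 genes of the mirrored rule (blue) follow the diagonal beyond the dotted limits at 0.8 and -0.8, and AT1G49570 is the member farthest out.

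The genotypes separated on single arrays as well as on means. In 98 of the 101 members all 6 ARR22-ox signals lay above all 6 Col-0 signals, and in 25 the lowest ARR22-ox signal was at least 2-fold above the highest Col-0 signal. All 6 ARR22-ox signals lay above all 6 Col-0 signals for 7.11% of all tested probe sets, and the share with the 2-fold gap was not counted. The members were selected on the difference behind both counts, so nothing is read from them. The 3 exceptions were SMZ, AT5G02940 and BGLU27, and in each the overlapping array was ARR22-ox untreated replicate 3. For 17 members both Col-0 means lay under 24.3, the lowest mean signal that passed the filter, so their ratios rest on dim Col-0 values.

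**Figure D2:**
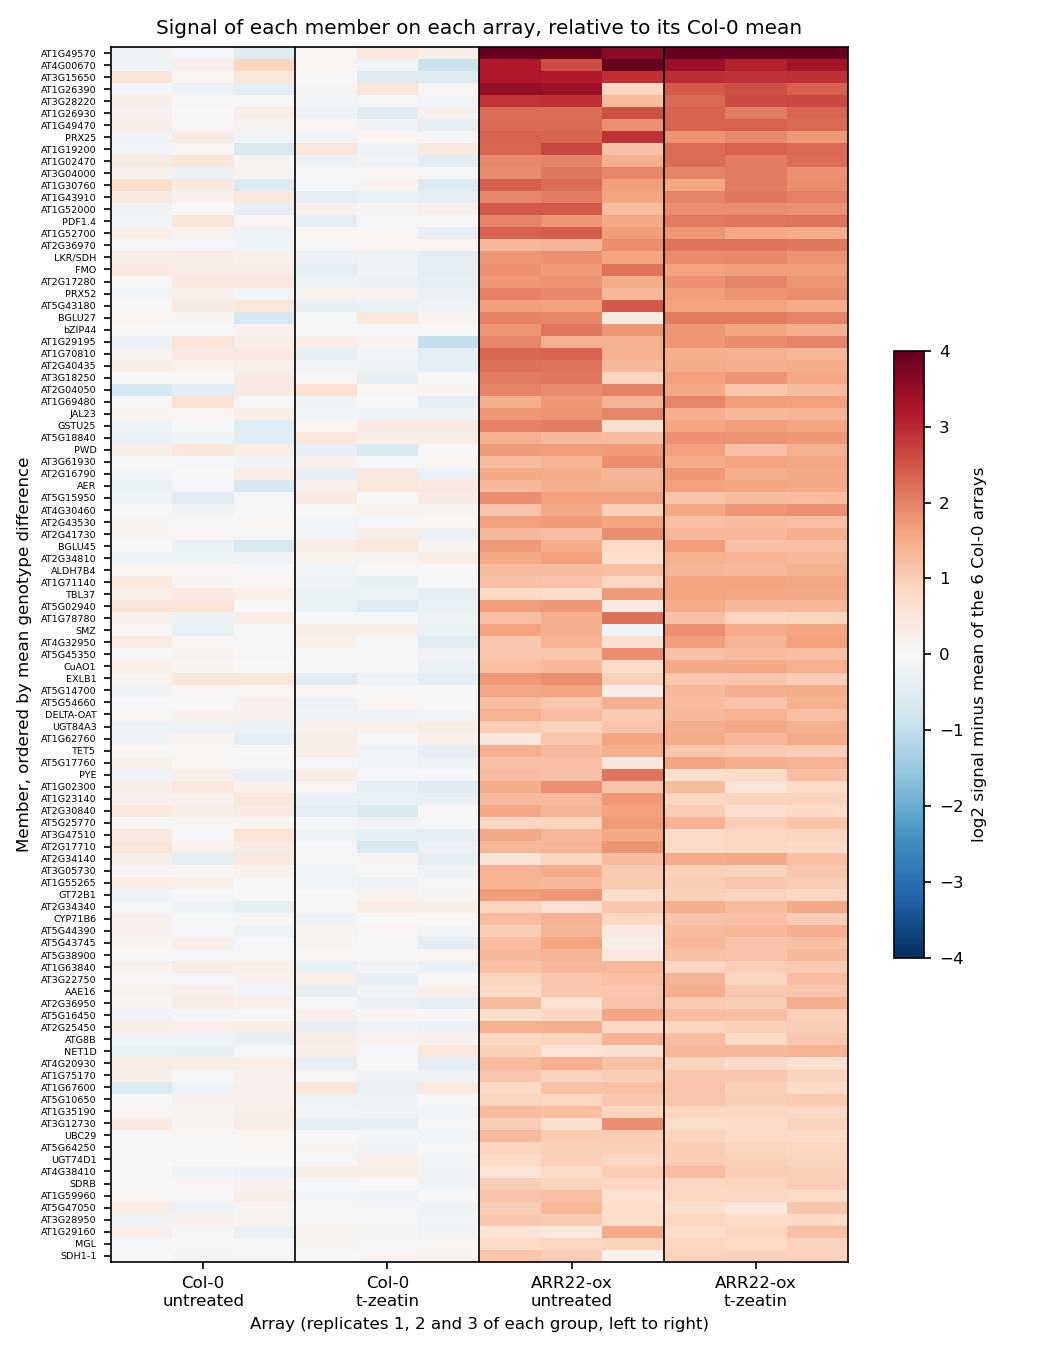
Signal of the 101 members (rows, ordered by mean genotype difference) on the 12 arrays (columns), as log2 signal minus the mean of the 6 Col-0 arrays, with a colour scale that ends at 4. Col-0 columns are pale throughout and ARR22-ox columns red. Breaks in the red lie mostly in the third ARR22-ox untreated column, as for AT1G26390, BGLU27 and SMZ.

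The largest difference belonged to AT1G49570, a gene known here by its locus only. Its signals were 29.1, 31.4 and 22.3 in Col-0 untreated, 35.1, 44.5 and 39.9 in Col-0 with t-zeatin, 521, 568 and 389 in ARR22-ox untreated and 657, 596 and 611 in ARR22-ox with t-zeatin. Every ARR22-ox array lay above every Col-0 array, and the lowest ARR22-ox signal was that of replicate 3. The log2 differences were 4.16 ± 0.16 untreated and 3.97 ± 0.16 after t-zeatin (± SE of the fit, n = 3 arrays per group), a mean ratio of 16.7. The fit shares a single spread per probe set across all groups, so both SEs of a gene are always equal.

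AT4G00670 and AT3G15650 followed, also named by locus only. AT4G00670 had 6.39, 8.10 and 13.1 in Col-0 untreated, 7.53, 6.70 and 3.98 with t-zeatin, 66.7, 44.2 and 122 in ARR22-ox untreated and 77.3, 60.2 and 72.4 with t-zeatin, and its differences were 3.02 and 3.57. The Col-0 signals of AT4G00670 were dim, at most 13.1, and with 16 added to each signal before the logarithm its mean difference was 1.89 in place of 3.29. AT3G15650 had 41.6, 31.2 and 40.5 in Col-0 untreated, 29.5, 20.8 and 20.8 in Col-0 with t-zeatin, 270.4, 268 and 222 in ARR22-ox untreated and 228, 218 and 223 in ARR22-ox with t-zeatin, with differences of 2.75 ± 0.15 and 3.25 ± 0.15. No array of one genotype reached the other in either gene.

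AT1G26390 was next and depended on which ARR22-ox untreated array was read. Its signals there were 155, 149 and 24.8, against 74.0, 81.8 and 71.6 with t-zeatin, 13.0, 11.5 and 10.3 in Col-0 untreated and 14.7, 19.5 and 14.0 in Col-0 with t-zeatin. Replicate 3 had a log2 value of -2.62 relative to the mean of replicates 1 and 2 and still lay above all Col-0 arrays. Without replicate 3 the untreated difference was 3.72 in place of 2.84 ± 0.52, and the ARR22-ox response was -1.01 in place of -0.13, outside the window of the rule. AT3G28220 had the same shape, with 679.5, 709 and 228 in ARR22-ox untreated, 454, 577 and 588 with t-zeatin, and 86.5 to 113 on the Col-0 arrays. Here too replicate 3 was the lowest of its group and above every Col-0 array.

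AT1G26930 and AT1G49470 were more even. AT1G26930 had 19.5 to 31.5 on the Col-0 arrays and 110.0 to 152 on the ARR22-ox arrays, with differences of 2.20 ± 0.16 and 2.39 ± 0.16. AT1G49470 had 36.4 to 54.7 and 163 to 238, with 1.97 ± 0.14 and 2.47 ± 0.14. AT1G19200 ran from 10.7 to 22.2 on the Col-0 arrays to 36.6 to 103 on the ARR22-ox arrays, its replicate 3 again the lowest of ARR22-ox untreated. AT3G04000 had the same difference in both conditions, 1.98 ± 0.12 untreated and 1.98 ± 0.12 after t-zeatin, with 28.9 to 38.1 on Col-0 and 122 to 147 on ARR22-ox arrays.

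The other members among the 30 with the largest mean difference and named by locus only were AT1G02470, AT1G30760, AT1G43910, AT1G52000, AT1G52700, AT2G36970, AT2G17280, AT5G43180, AT1G29195, AT1G70810, AT2G40435, AT3G18250, AT2G04050 and AT1G69480. Their mean differences ran from 1.63 for AT1G69480 to 1.98 for AT1G02470. With 16 added to each signal before the logarithm, the mean difference was 0.86 in place of 1.64 for AT2G04050, 1.04 in place of 1.74 for AT1G29195, 1.07 in place of 1.97 for AT1G30760 and 1.08 in place of 1.63 for AT1G69480. Over the whole set, this offset lowered the mean difference by more than 1.5 times in 11 members. AT1G70810 had 105 to 172 on the Col-0 arrays and 341 to 689.6 on the ARR22-ox arrays. AT2G04050 was dim in Col-0, at 6.28 to 15.2, and had 22.1 to 41.2 in ARR22-ox. None of these 14 genes had an overlapping array. A further 47 members were also named by locus only, with mean differences from 0.87 to 1.56 and a median of 1.15, and 26 of them differed by at least 1 on the log2 scale in both conditions.

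Of the 101 members, 29 carried a gene name beyond the locus, and the annotation's synonyms name a further pair, PRX25 (AT2G41480) and the lysine-degrading enzyme LKR/SDH (AT4G33150). These named members fall into groups by role: cell walls, glycosylation and detoxification, primary metabolism, defence, and regulators with membrane and protein-turnover genes. Members named by locus only were not placed in these groups, whatever their family. For members with a family symbol the relatives were counted by symbol or synonym over the tested genes outside the set, and these family lists were written after the names of the members had been seen. Such counts miss relatives that carry no family symbol.

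Among genes that act on the cell wall, PRX25 and PRX52 encode class III peroxidases, secreted enzymes that can polymerise phenolic wall components, and PRX52 is known for a part in lignin formation. PRX25 had 19.8, 27.6 and 20.5 in Col-0 untreated, 20.3, 23.2 and 21.3 in Col-0 with t-zeatin, 113, 110.3 and 164 in ARR22-ox untreated and 76.8, 83.8 and 73.8 in ARR22-ox with t-zeatin. All ARR22-ox arrays were above all Col-0 arrays, and the t-zeatin arrays of ARR22-ox lay below its untreated ones. Its differences were 2.50 ± 0.17 untreated and 1.86 ± 0.17 after t-zeatin. PRX52 had 24.3, 30.2 and 24.0 in Col-0 untreated, 29.0, 28.0 and 22.2 in Col-0 with t-zeatin, 106, 99.9 and 64.5 in ARR22-ox untreated and 82.6, 90.3 and 94.6 in ARR22-ox with t-zeatin. The PRX52 differences were 1.76 ± 0.19 and 1.76 ± 0.19, with Col-0 and ARR22-ox responses of 0.01 and 0.02.

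Of 4 other tested class III peroxidase genes found by symbol or synonym, 1 was called higher and 1 lower in ARR22-ox untreated, and 2 higher and 1 lower after t-zeatin (limma, adjusted p under 0.05). Without ARR22-ox untreated replicate 3, 3 were called higher untreated. PRXR1 was the one called higher untreated, by 0.26, and differed by -0.02 after t-zeatin (limma, adjusted p = 0.00201 and 0.761). TAPX, an ascorbate peroxidase of the thylakoids and of another class, was lower in both conditions, at -1.11 and -0.82 (limma, adjusted p = 1.62e-06 and 1.78e-05). Prx37 was at 191 ± 10.4 in Col-0 untreated and 195 ± 41.2 in ARR22-ox untreated, but at 153 ± 13.4 against 659 ± 31.4 after t-zeatin (SD, n = 3), a difference of 2.11 ± 0.14 (limma, adjusted p = 1.33e-07). Untreated the difference of Prx37 was 0.00 (limma, adjusted p = 0.981), whereas PRX25 and PRX52 were higher in ARR22-ox in both conditions, as the rule required.

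BGLU45 encodes a beta-glucosidase known to release monolignols, the building blocks of lignin, from their glucosides. Its signals were dim, 10.7 to 21.8 on the Col-0 arrays and 28.2 to 52.4 on the ARR22-ox arrays, with differences of 1.60 ± 0.25 and 1.07 ± 0.25. With 16 added before the logarithm its mean difference was 0.82 in place of 1.34. BGLU46 lies directly beside it on chromosome 1 and is a non-member with related function, and it had differences of 1.01 ± 0.31 untreated and 2.67 ± 0.31 after t-zeatin (limma, adjusted p = 0.0158 and 1.44e-05). With either replicate 1 or replicate 2 of ARR22-ox untreated left out the untreated call was gone, with a limma adjusted p of up to 0.0672. BGLU27, another member of the family, had 12.1, 12.2 and 7.20 in Col-0 untreated, 10.9, 15.3 and 12.7 with t-zeatin, 46.0, 44.8 and 14.6 in ARR22-ox untreated and 48.1, 48.8 and 45.5 with t-zeatin. Its replicate 3 lay within the Col-0 range, while the other 5 ARR22-ox arrays lay above it. The offset of 16 gave BGLU27 a mean difference of 1.01 in place of 1.75. Of 10 other tested beta-glucosidase genes, 4 were called higher and 2 lower untreated, and 5 higher and 3 lower after t-zeatin. The number higher after t-zeatin was 6 without ARR22-ox untreated replicate 3.

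TBL37 belongs to the trichome birefringence-like family, whose known members add acetyl groups to wall polysaccharides. It had 139.6, 151 and 141 in Col-0 untreated and 103, 105 and 96.8 with t-zeatin, and 209.9, 197 and 393 in ARR22-ox untreated and 361, 351 and 348 with t-zeatin. Replicate 3 was the highest untreated array, near the level of the t-zeatin arrays. The untreated difference of 0.82 ± 0.20 was 0.50 without replicate 3, below the limit of the rule, and the difference after t-zeatin was 1.80 ± 0.20. Of 14 other tested family genes, 1 was called higher and 6 lower untreated, and 2 higher and 5 lower after t-zeatin. The number lower untreated was 8 without replicate 3.

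EXLB1 encodes an expansin-like protein, a relative of proteins that loosen cell walls, and it had 64.0 to 119.8 on the Col-0 arrays and 169.9 to 319 on the ARR22-ox arrays. Its differences were 1.19 ± 0.20 and 1.38 ± 0.20, and without replicate 3 the untreated value was 1.47. Of 10 other tested expansin and expansin-like genes, 1 was called higher and 5 lower in ARR22-ox in each condition. EXPA8 had the most negative differences of them in both conditions. It was at 139 ± 3.47 in Col-0 untreated and 26.7 ± 13.4 in ARR22-ox untreated (SD, n = 3), and its differences were -2.51 ± 0.28 and -2.56 ± 0.28 (limma, adjusted p = 1.29e-05 and 8.95e-06). CuAO1, a copper amine oxidase that oxidises polyamines, had 52.9 to 73.7 on the Col-0 and 107 to 187 on the ARR22-ox arrays, with differences of 0.98 ± 0.14 and 1.60 ± 0.14.

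Genes for glycosylation formed a second group. UGT84A3 attaches glucose to sinapate, a phenolic acid, and its signals were 52.4, 51.7 and 50.7 in Col-0 untreated, 67.9, 67.5 and 69.8 with t-zeatin, 119, 113 and 131 in ARR22-ox untreated and 164, 170.4 and 160.2 with t-zeatin. The 4 groups did not overlap, and the arrays with t-zeatin were the higher ones in each genotype. Its differences were 1.23 ± 0.09 and 1.27 ± 0.09. GT72B1 (UGT72B1), which glucosylates xenobiotics and monolignols, had 394, 410.2 and 200.3 in ARR22-ox untreated, 241, 230.2 and 223 with t-zeatin, and 111 to 137 on the Col-0 arrays. Its replicate 3 was the lowest of the untreated arrays and still above Col-0. UGT74D1, which glucosylates auxins, had 93.0 to 115 on Col-0 and 172 to 202 on ARR22-ox arrays.

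Of 28 other tested UDP-glycosyltransferase genes, 10 were called higher and 5 lower untreated, and 14 higher and 4 lower after t-zeatin, with median differences of 0.13 and 0.48. Without ARR22-ox untreated replicate 3, 9 were called higher and 7 lower untreated, and 15 higher and 7 lower after t-zeatin. UGT87A2 was the one with the smallest adjusted p after t-zeatin, at 165 ± 4.73 in Col-0 and 705 ± 54.3 in ARR22-ox, a difference of 2.09 ± 0.09 (limma, adjusted p = 4.37e-09), and untreated the difference was 0.87 ± 0.09 (limma, adjusted p = 6.35e-06). UGT84A4, directly beside UGT84A3, differed by 0.03 ± 0.19 and -0.37 ± 0.19 and was not called (limma, adjusted p = 0.914 and 0.129).

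Among detoxification genes, GSTU25 encodes a tau-class glutathione transferase, and such enzymes couple glutathione to reactive compounds. Its signals were 18.1, 20.4 and 15.0 in Col-0 untreated, 22.4, 26.7 and 26.2 with t-zeatin, 85.2, 87.5 and 33.1 in ARR22-ox untreated and 63.1, 67.7 and 62.4 with t-zeatin. Replicate 3 was the lowest ARR22-ox array and lay just above the highest Col-0 array. GSTU26, directly beside it, was at 342 ± 15.5 in Col-0 with t-zeatin and 124 ± 10.1 in ARR22-ox with t-zeatin, a difference of -1.47 ± 0.20 in the other direction (limma, adjusted p = 5.98e-05), and untreated it differed by 0.32 ± 0.20 (limma, adjusted p = 0.206). Without replicate 3 the untreated difference of GSTU26 was 0.64 and was called. Of 6 other tested tau-class genes, 4 were called higher and 1 lower untreated, and 4 higher and 2 lower after t-zeatin.

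AER, an alkenal reductase that removes reactive aldehydes from lipid peroxidation, had 108, 122 and 83.1 in Col-0 untreated and 145, 177 and 167 with t-zeatin, and 325, 353 and 344 in ARR22-ox untreated and 401, 383 and 374 with t-zeatin. Its Col-0 response of 0.65 was the highest in the set, and no Col-0 array reached an ARR22-ox array. ALDH7B4, an aldehyde dehydrogenase of the stress response, had 461, 453 and 446 in Col-0 untreated, 407, 429 and 428 in Col-0 with t-zeatin, 1052, 1061 and 1013 in ARR22-ox untreated and 1125, 1086 and 1176 in ARR22-ox with t-zeatin. The pooled within-group SD of ALDH7B4, 0.04 on the log2 scale, was the smallest in the set, with differences of 1.20 ± 0.06 untreated and 1.42 ± 0.06 after t-zeatin. FMO, a flavin-containing monooxygenase, had 63.7 to 106 on Col-0 arrays and 254 to 381 on ARR22-ox arrays. CYP71B6, a cytochrome P450, had 203 to 253 and 403 to 593. Of 7 other tested aldehyde dehydrogenase genes, 2 were called higher and 1 lower untreated, and 2 higher and 3 lower after t-zeatin. The number higher untreated was 3 without ARR22-ox untreated replicate 3. Of 9 tested CYP71B genes, CYP71B6 included, 4 were called higher and 1 lower untreated, and 5 higher and 0 lower after t-zeatin. CYP71B26 was called higher untreated by 1.63 (limma, adjusted p = 0.0206). That call was lost when 1 array was left out, with a limma adjusted p of up to 0.085.

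In primary metabolism, LKR/SDH (AT4G33150), the first enzyme of lysine degradation, had 75.9, 78.9 and 73.6 in Col-0 untreated, 54.0, 56.3 and 49.8 with t-zeatin, 217, 225 and 189 in ARR22-ox untreated and 237, 241 and 219.6 with t-zeatin. The Col-0 arrays were lower with t-zeatin than without and the genotypes did not overlap, with differences of 1.46 ± 0.09 and 2.12 ± 0.09. DELTA-OAT, ornithine aminotransferase, which links arginine breakdown to glutamate, had 114 to 146 on Col-0 arrays and 266 to 339.5 on ARR22-ox arrays. MGL, the methionine gamma-lyase that degrades methionine, had 102 to 114 and 182 to 202, and its differences of 0.87 ± 0.08 and 0.82 ± 0.08 were among the smallest of the set.

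SDH1-1 encodes the flavoprotein subunit of succinate dehydrogenase, complex II of the respiratory chain. Its signals were 243 to 285 on the Col-0 arrays and 564, 523 and 291 in ARR22-ox untreated, and 495, 511 and 495 with t-zeatin. Replicate 3 lay just above the Col-0 arrays and far below the other 5 ARR22-ox arrays. PWD (AT4G24450), a dikinase by its symbol, had 16.9 to 34.5 on Col-0 and 58.2 to 83.1 on ARR22-ox arrays. Its differences were 1.38 ± 0.16 and 1.73 ± 0.16. SDRB, a peroxisomal 2,4-dienoyl-CoA reductase of fatty acid oxidation, had differences of 0.83 ± 0.08 and 0.98 ± 0.08. A further probe set for SDRB gave 0.39 and 0.83, below the limit untreated. AAE16, an acyl-activating enzyme, had 26.4 to 37.9 on Col-0 and 56.5 to 90.8 on ARR22-ox arrays. AAE15, the other tested gene of its family, differed by 0.16 and 0.62 (limma, adjusted p = 0.586 and 0.0361), and the second call was lost when 1 array was left out, with an adjusted p of up to 0.13. Without ARR22-ox untreated replicate 3 the untreated difference of AAE15 was 0.51 and was called.

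Defence-related members were PDF1.4, a small cysteine-rich defensin-like protein, and JAL23, a jacalin-related lectin. PDF1.4 had 18.9, 28.8 and 21.0 in Col-0 untreated, 15.7, 19.8 and 20.5 with t-zeatin, 80.7, 68.9 and 58.2 in ARR22-ox untreated and 86.5, 90.1 and 92.2 with t-zeatin, with differences of 1.61 ± 0.18 and 2.27 ± 0.18. Both Col-0 groups were low and the ARR22-ox t-zeatin arrays were the highest. JAL23 had 68.8 to 91.5 on Col-0 arrays and 196 to 302 on ARR22-ox arrays, with differences of 1.70 ± 0.09 and 1.52 ± 0.09. Of 3 other tested jacalin-related lectin genes, 0 were called untreated in either direction, and 0 were called higher and 2 lower after t-zeatin. Of 6 other tested defensin-like genes, 0 were called higher and 2 lower untreated, and 3 higher and 3 lower after t-zeatin. Without replicate 3, 1 lectin gene and 2 defensin-like genes were called higher untreated.

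**Figure D3:**
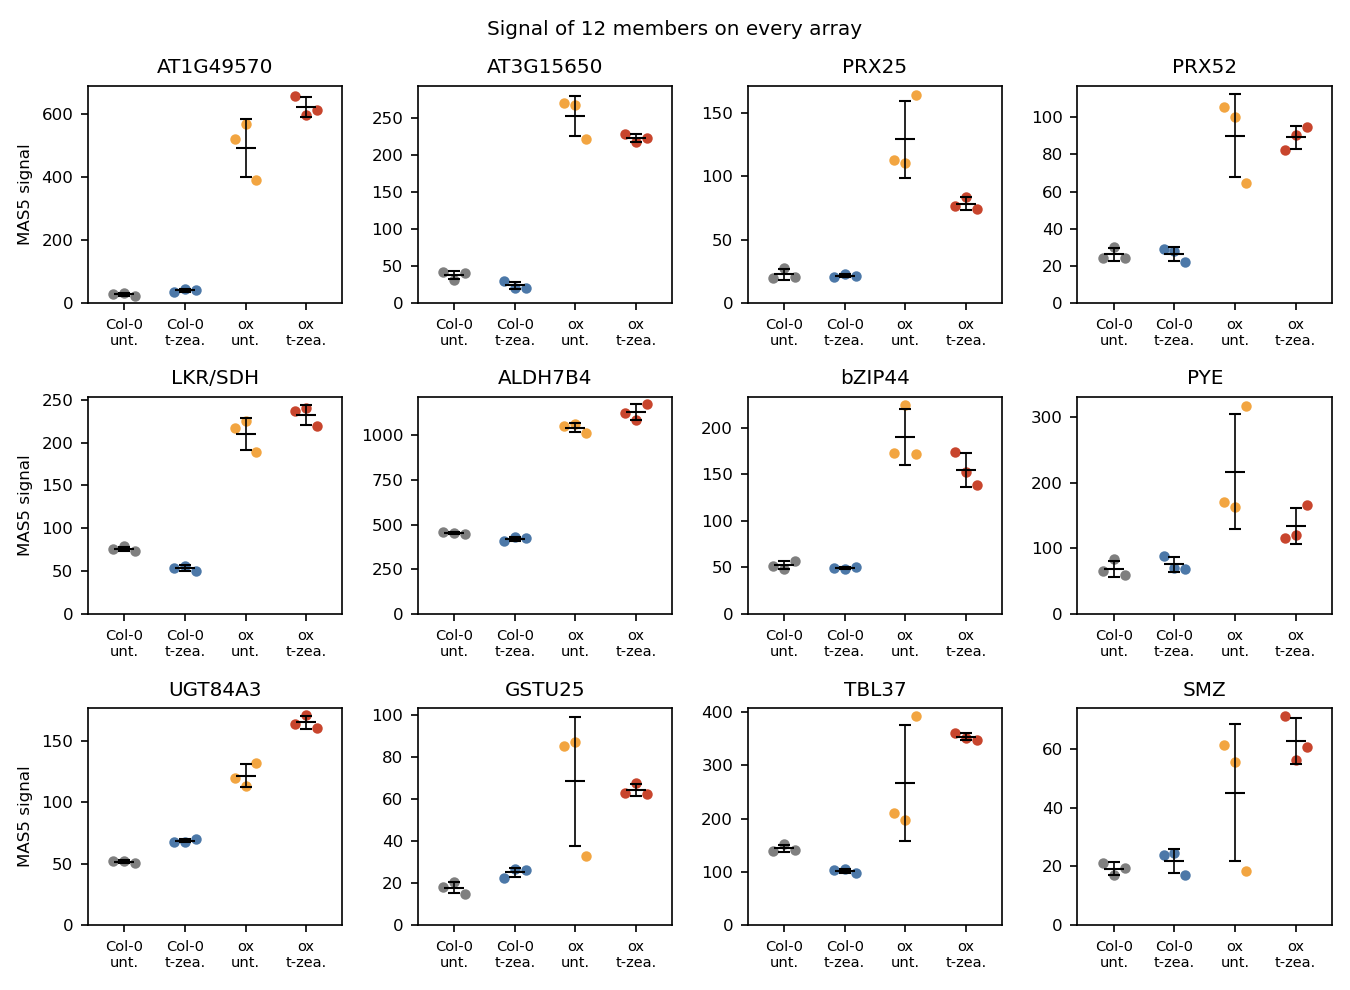
MAS5 signal of 12 members on every array (points), with group mean and SD (n = 3) in black, on linear axes that start at 0 and differ between panels. In each panel the ARR22-ox points lie above the Col-0 points except for SMZ, where ARR22-ox untreated replicate 3 at 18.3 lies among them.

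Among members with a gene name, bZIP44, SMZ and PYE encode transcription factors. Members named by locus only were not classed by role. bZIP44, a basic leucine zipper transcription factor, had 51.6, 48.7 and 57.0 in Col-0 untreated, 49.3, 48.8 and 50.3 with t-zeatin, 173, 224 and 172 in ARR22-ox untreated and 174, 153 and 138 with t-zeatin. Every ARR22-ox array was more than 2-fold above every Col-0 array, and the differences were 1.85 ± 0.12 and 1.64 ± 0.12. Of 10 other tested bZIP genes, 1 was called higher and 5 lower untreated, and 2 higher and 0 lower after t-zeatin. The number higher after t-zeatin was 3 without ARR22-ox untreated replicate 3.

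SMZ, an AP2-type repressor of flowering, had 21.2, 16.9 and 19.5 in Col-0 untreated, 23.8, 24.4 and 17.1 with t-zeatin, 61.4, 55.6 and 18.3 in ARR22-ox untreated and 71.3, 56.4 and 60.6 with t-zeatin. The third untreated ARR22-ox array lay within the Col-0 range, and the other 5 lay above all Col-0 arrays. Without it the untreated difference was 1.61 in place of 1.05 ± 0.36.

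PYE is a basic helix-loop-helix factor of the iron deficiency response. Its signals were 65.0, 83.1 and 59.952 in Col-0 untreated, 88.7, 69.8 and 69.0 with t-zeatin, 171, 163 and 318 in ARR22-ox untreated and 116, 121 and 166 with t-zeatin. All ARR22-ox arrays were above all Col-0 arrays, and replicate 3 was the highest of its group. The differences were 1.59 ± 0.24 untreated and 0.82 ± 0.24 after t-zeatin, and without replicate 3 the untreated one was 1.28. Of 276 genes in 18 lists by pathway or tissue, the annotation pairs 33 with a probe set of their own, and PYE was the sole member among these 33. In 5 of the lists no gene had such a probe set and in most others few had, so those lists could hold few members or none. Of the 21 genes of the iron deficiency list 3 were tested, and the other 2 were AT1G47400 and AT3G13610. AT1G47400 was at 51.8 ± 7.09 in Col-0 untreated and 2208 ± 415 in ARR22-ox untreated, and at 139 ± 8.91 against 448 ± 9.43 after t-zeatin (SD, n = 3). Its differences were 5.41 ± 0.13 and 1.69 ± 0.13 (limma, adjusted p = 1.20e-10 and 5.34e-07), so both it and PYE stood higher in ARR22-ox. AT1G47400 is outside the set because it was not steady: its Col-0 and ARR22-ox responses were 1.43 and -2.29. AT3G13610 differed by -0.28 ± 0.20 and 0.19 ± 0.20 and was not called (limma, adjusted p = 0.264 and 0.433). Without replicate 3 the AT3G13610 untreated difference was -0.59.

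TET5, a tetraspanin of the plasma membrane, had 26.5 to 40.2 on Col-0 and 66.2 to 91.5 on ARR22-ox arrays. Of 6 other tested tetraspanin genes, 1 was called higher and 3 lower untreated, and 2 higher and 4 lower after t-zeatin. Without ARR22-ox untreated replicate 3, 0 were called higher untreated. NET1D, a protein that binds actin filaments, had 21.3 to 35.1 and 38.1 to 68.3, with differences of 0.92 ± 0.15 and 1.15 ± 0.15. Of 3 other tested genes of the family, 2 were called higher and 0 lower untreated, and 1 higher and 0 lower after t-zeatin. NET1B was higher by 1.13 ± 0.22 untreated and differed by -0.40 ± 0.22 after t-zeatin (limma, adjusted p = 0.0011 and 0.153), and NET4B differed by 0.27 and -0.27 (limma, adjusted p = 0.141 and 0.133). NET3A was called higher untreated at 1.36 ± 0.20 (limma, adjusted p = 0.000128) and after t-zeatin at 0.63 ± 0.20 (limma, adjusted p = 0.018), and the second call was lost without ARR22-ox t-zeatin replicate 1 or 2 or Col-0 t-zeatin replicate 1 or 2, with a highest adjusted p of 0.0667. ATG8B, a ubiquitin-like protein of the autophagosome, had 65.5, 65.7 and 59.997 in Col-0 untreated, 91.1, 81.6 and 82.3 in Col-0 with t-zeatin, 131, 135 and 191 in ARR22-ox untreated and 174, 128 and 157 in ARR22-ox with t-zeatin. Of 8 other tested ATG8 genes, 3 were called higher and 1 lower untreated, and 4 higher and 0 lower after t-zeatin. The number higher after t-zeatin was 6 without ARR22-ox untreated replicate 3. UBC29, a ubiquitin-conjugating enzyme, had 154 to 175 on Col-0 and 279 to 405 on ARR22-ox arrays, with differences of 1.08 ± 0.09 and 0.84 ± 0.09. Of 10 other tested ubiquitin-conjugating enzyme genes, 4 were called higher and 2 lower untreated, and 4 higher and 3 lower after t-zeatin. Without replicate 3, 5 were called lower untreated.

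The window on the response left room for variation with t-zeatin. In Col-0 the response of the members ran from -0.70 to 0.65 with a median of -0.13, and in ARR22-ox from -0.70 to 0.65 with a median of 0.01. Both responses were above 0 in 27 members and both below 0 in 39. In 28 the signal was lower after t-zeatin in Col-0 and higher in ARR22-ox, and in 7 the reverse. The genotype difference was larger after t-zeatin in 59 members and larger untreated in 42, and in 29 the 2 differences were within 0.1 of each other.

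The genotype difference was most different between conditions in a few members at each end. It grew with t-zeatin by 0.98 for TBL37, 0.94 for AT1G02470, 0.87 for AT1G71140 and 0.86 for AT1G43910. Without ARR22-ox untreated replicate 3 these values were 1.30, 0.78, 0.77 and 0.71, and AT4G00670 and AT2G34140 came after TBL37 at 0.94 and 0.87. AT1G02470 had 38.8, 42.4 and 33.9 in Col-0 untreated, 26.8, 28.8 and 23.1 with t-zeatin, 119.8, 124 and 87.1 in ARR22-ox untreated and 149.7, 131 and 149 with t-zeatin. All its Col-0 arrays were lower and all its ARR22-ox arrays higher with t-zeatin than without. AT1G43910 had 141, 123 and 146 in Col-0 untreated, 84.5, 90.4 and 84.1 in Col-0 with t-zeatin, 418, 444 and 321 in ARR22-ox untreated and 433, 472 and 441 in ARR22-ox with t-zeatin. The difference shrank with t-zeatin by 1.19 for AT2G04050, 0.95 for AT5G15950, 0.77 for PYE and 0.65 for PRX25. This order rested on replicate 3. Without it the difference shrank by 1.16, 0.99, 0.46 and 0.46 in these 4 genes, and by 1.47 for AT1G26390 and 0.97 for GT72B1, against 0.59 and 0.63 with it. AT5G15950 had 74.9, 62.2 and 82.4 in Col-0 untreated, 107, 83.9 and 107 in Col-0 with t-zeatin, 309, 262 and 263 in ARR22-ox untreated and 185, 203 and 198 in ARR22-ox with t-zeatin. Its genotypes came closer from both sides and still did not overlap.

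**Figure D4:**
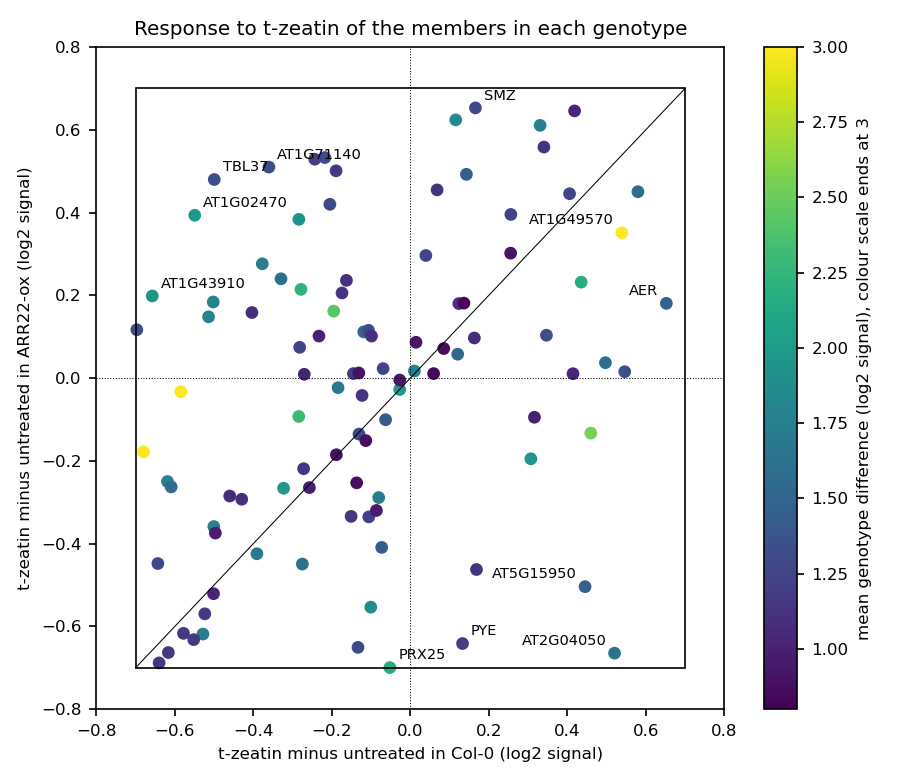
Response to t-zeatin of each member in Col-0 (horizontal axis) and in ARR22-ox (vertical axis), in log2 signal, coloured by mean genotype difference. The square is the window of the rule at -0.7 and 0.7, and points above the diagonal, such as TBL37 and AT1G02470, had a larger genotype difference after t-zeatin.

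The spread within ARR22-ox untreated was wider than in the other groups. The median within-group SD of the members was 0.29 on the log2 scale there, against 0.13 in Col-0 untreated, 0.14 in Col-0 with t-zeatin and 0.09 in ARR22-ox with t-zeatin. Over all tested probe sets the corresponding medians were 0.23, 0.11, 0.10 and 0.09. The fit shares a single spread per probe set across the groups. Its SEs and p-values thus tend to be too small for untreated genotype differences and too large after t-zeatin. For the same reason, leaving out an untreated array also changes calls after t-zeatin. Replicate 3 was the lowest of the 3 untreated ARR22-ox arrays in 56 members (55.4%) and the highest in 36 (35.6%), against 43.8% and 45.1% of all tested probe sets. It lay more than 2-fold from the mean of the other 2 in 15 members (14.9%), against 7.77% of all tested probe sets. Of these 15, AT1G26390, AT3G28220, AT1G19200, AT1G52000, BGLU27, AT3G18250, GSTU25, AT5G02940, SMZ, AT5G14700, GT72B1 and AT5G43745 were lower on replicate 3, and AT4G00670, AT3G12730 and AT1G29160 were higher.

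**Figure D5:**
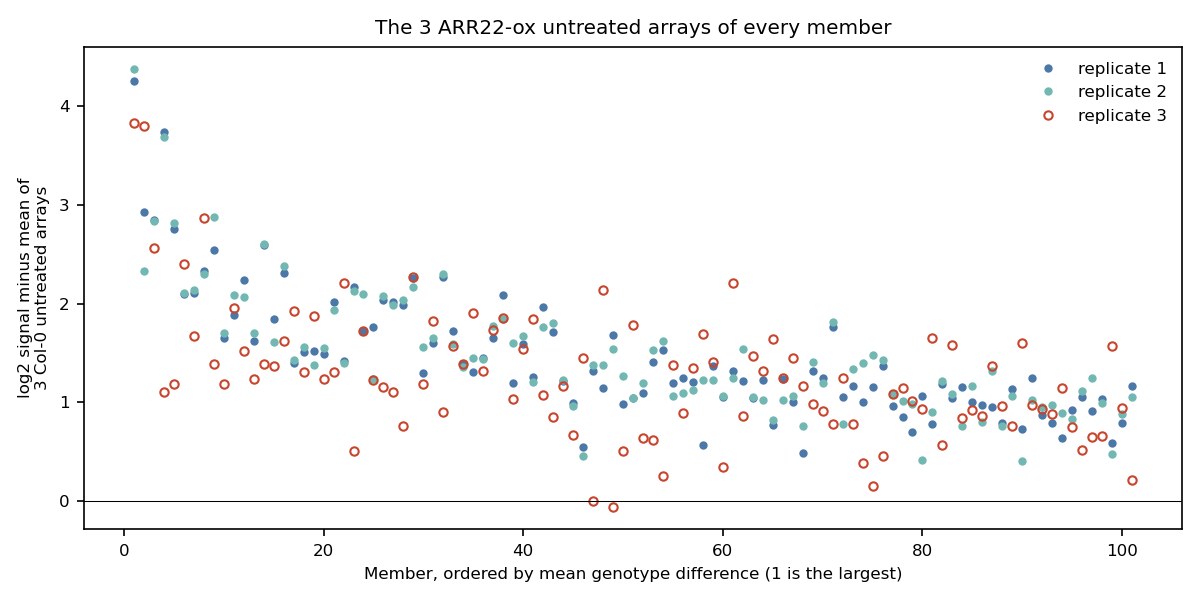
Log2 signal of each member on the 3 ARR22-ox untreated arrays minus its mean on the 3 Col-0 untreated arrays, with members ordered by mean genotype difference. Replicates 1 and 2 (filled) lie close together, while replicate 3 (open) departs in both directions and reaches the Col-0 level for AT5G02940 and SMZ.

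Leaving replicate 3 out of the rule selected 117 genes, of which 85 were members (84.2% of the 101) and 32 were not. The 16 members lost were EXLB1, GT72B1, TBL37, AT1G26390, AT1G52700, AT1G70810, AT2G40435, AT2G36970, AT2G36950, AT1G02300, AT1G29160, AT2G34140, AT3G12730, AT4G38410, AT5G10650 and AT5G25770. Of these, 8 fell under the limit of 0.8 untreated. Their differences were then 0.50 for TBL37, 0.53 for AT1G29160, 0.57 for AT3G12730, 0.62 for AT2G34140, 0.74 for AT2G36950, 0.76 for AT4G38410, 0.77 for AT5G10650 and 0.797 for AT5G25770. The other 8 left the window on the ARR22-ox response alone. Their responses were then -0.73 for EXLB1, -0.80 for GT72B1, -0.80 for AT1G02300, -1.01 for AT1G26390, -0.79 for AT1G52700, -0.92 for AT1G70810, -0.72 for AT2G40435 and 0.80 for AT2G36970. The untreated difference of GT72B1 was 1.79 in place of 1.45. Among the members kept, that of AT5G02940 was 1.34 in place of 0.89 and that of SMZ 1.61 in place of 1.05. Leaving out any other single array selected between 94 and 104 genes. In all, 57 members were selected without any 1 of the 12 arrays and 44 were lost without at least 1 of them.

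The members lay on all 5 chromosomes. Chromosome 1 held 34 of them (33.7%), against 26.1% of the probe sets that reached the minimum group mean, and chromosome 2 held 20 (19.8%, against 14.6%). Chromosomes 3, 4 and 5 held 15, 12 and 20 (14.9%, 11.9% and 19.8%, against 20.3%, 14.9% and 24.2%). In 4 places members had at most 5 protein-coding genes between them. AT2G36950 and AT2G36970 had 1 gene between them, AT1G29160 and AT1G29195 had 3, and AT1G62760 with CuAO1 and UBC29 with AT2G16790 had 4 each. A further probe set for AT1G62760 gave differences of 0.06 untreated and 1.11 after t-zeatin. Its highest group mean was only 0.08 on the log2 scale, too dim to read.

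Genes directly beside a member but outside the set were also examined. Neighbours that met the rule are members themselves, so those counted here are the ones that failed it, which leaves fewer that can be higher in both conditions. Of 65 such genes that were tested, 19 (29.2%) were called higher and 11 (16.9%) lower in ARR22-ox untreated, and 18 (27.7%) higher and 20 (30.8%) lower after t-zeatin. Over the whole table the shares were 24.5%, 24.0%, 23.1% and 28.0%. The following 4 were picked after their values were seen. AT1G26380, beside AT1G26390, was higher by 1.27 untreated and 2.72 after t-zeatin (limma, adjusted p = 5.12e-05 and 7.33e-08). AT5G44400, beside the member AT5G44390, was lower, at -1.68 and -1.50 (limma, adjusted p = 7.91e-06 and 1.69e-05). AT4G30450, beside the member AT4G30460, was higher by 2.00 and 0.98 (limma, adjusted p = 4.34e-09 and 1.28e-06). TBL26, beside GT72B1, was higher by 2.24 untreated (limma, adjusted p = 0.000154) and differed by -0.01 after t-zeatin (limma, adjusted p = 0.981).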

How the data were processed

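The 12 arrays carried 22810 probe sets, 64 of them controls. Per the submitters' processing notes the authors used MAS5, and the table they deposited gives 1 linear intensity for each probe set. On every array the mean signal, after trimming 2% at each end, was 100, so the deposited arrays share one scaling and were not normalized again. MAS5 signals of dim probe sets are noisy, and log2 ratios to a dim Col-0 value can be inflated. Promoter and protein sequences were not analysed here. The number of arrays per group, 3, limits the precision.

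Signals were converted to log2 and averaged by group, and the rule was applied to the means. Gene names came from the array's annotation, updated through RefSeq gene identifiers, which matched all 101 members. Probe sets were kept for testing when their mean log2 signal lay at or above the 40th percentile, which left 13648. In R 4.3.3, limma 3.58.1 estimated the 4 group means from all arrays together, with a variance trend, two-sided tests and Benjamini-Hochberg adjustment over these probe sets. The fit was tested on simulated data with independent noise of the same spread in every group. That simulation held no outlying array and no wider group, so it is no check on ARR22-ox untreated replicate 3.

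The members and all lists were chosen with earlier results of these data known, and family lists and adjacent genes were added later. Named are the 30 members with the largest mean difference, members in an examined list, members at the limits of the rule, neighbouring members, the least even ones, and all members with a gene name. Relatives with single values were picked after their values were seen. Other scalings, an offset, filters, limits of the rule and the omission of each array in turn were tried.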

Additional observations from a re-analysis of the deposited data

Results flagged for a closer look

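For 5 members the t-zeatin arrays and the untreated arrays did not overlap within either genotype and lay in opposite order in the 2 genotypes. The same count over all tested probe sets was not made, so nothing is read from this number. In AT1G02470, AT1G71140, AT5G17760 and ALDH7B4 every t-zeatin array was the lower in Col-0 and the higher in ARR22-ox, and in AT5G15950 the order was the reverse. For AT1G02470 the log2 response was -0.55 in Col-0 and 0.39 in ARR22-ox, 0.94 apart. For AT1G71140 it was -0.36 and 0.51, 0.87 apart, and for AT5G17760 it was -0.24 and 0.53, 0.77 apart. For ALDH7B4 it was -0.11 and 0.12, 0.22 apart. For AT5G15950 it was 0.45 and -0.50, a difference of -0.95. The difference between the genotypes' responses was not tested, because the rule used all 4 means. ARR22-ox untreated replicate 3 was the lowest untreated ARR22-ox array for AT1G02470 at 87.1, for AT1G71140 at 87.4, for AT5G17760 at 98.8 and for ALDH7B4 at 1013.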

How the results depend on the processing

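Among the settings tried, the fewest genes, 64, were selected with a t-zeatin response window of 0.5 on the log2 scale in place of 0.7. The steps in the limits were of unlike size, so they do not rank the limits. The count was 68 with a genotype difference of at least 1, 76 with a minimum group mean of 6.3, 98 after quantile normalization and 96 with all arrays set to the same median. Adding 16 to each signal before the logarithm selected 83 genes, of which 65 were members (64.4% of the 101). Leaving out 1 array at a time selected 94 to 117 genes, and 117 came without ARR22-ox untreated replicate 3. Over the settings tried, no genotype difference changed direction among 54 members, the 30 with the largest difference and those with a gene name. The rule and the choice of the largest differences left little room for such a change, so nothing is read from this. In 774 of 810 recalculations it moved by no more than its within-group spread, and in 36 by more. The offset moved 7 of these differences by over 1.5 times: AT4G00670, AT1G30760, BGLU27, AT1G29195, AT2G04050, AT1G69480 and BGLU45, all dim in Col-0. The scalings moved the median of all tested probe sets by less than 0.1. No paired analysis was possible because the labels give no replicate numbers shared between groups. Dim Col-0 signals limit the ratios of 17 members.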
